A study of Mus musculus with 24 samples.

Results

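The genes described here encode the nuclear subunits of the 5 oxidative phosphorylation complexes, together with genes whose symbols share their stems. Members were taken by symbol from the deposited gene table: Nduf followed by a, b, c, s or v, Sdha to Sdhd, Uqcr, Cyc1, Cox4 to Cox8, and Atp5. This gave 90 of the 12611 genes in the table. Of these, 36 belong to complex I, 4 to complex II, 9 to complex III, 16 to complex IV and 14 to ATP synthase. The remaining 11 are complex assembly factors or associated proteins that carry the same symbol stems. The study measured ribosome-depleted RNA in lens epithelium and lens fiber dissected by hand from CD1 mice at 3 embryonic stages named by day (E14.5, then E16.5, then E18.5) and just after birth (P0.5). Each of the 8 groups holds 3 biological replicates, which makes 12 libraries per tissue and 24 in all. No group carries a transgene or a treatment. The labels do not say how many animals went into a replicate, so p-values measure the spread between these dissections.

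Oxidative phosphorylation moves electrons from NADH and succinate through complexes I, II, III and IV of the inner mitochondrial membrane to oxygen, and ATP synthase uses the proton gradient they build. Most subunits are encoded in the nucleus, and a few membrane subunits of complexes I, III, IV and ATP synthase are encoded in mitochondrial DNA. None of the 13 subunit genes of mitochondrial DNA was found by symbol in the deposited gene table, so they could not be analysed here. In the lens, epithelial cells at the front keep their organelles, while fiber cells elongate, fill with crystallins and later lose their mitochondria and nuclei from the centre outward.

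Crystallin RNA differs so much between the tissues that the main comparisons are given with 2 scalings, and a difference printed alone is with TMM. The 16 crystallin genes took 1.66 to 4.28% of the counts in epithelium and 23.3 to 43.9% in fiber. Scaling with the trimmed mean of M-values (TMM) sets the bulk of genes equal between libraries, and its factors were 1.41 to 1.58 in epithelium and 0.442 to 0.869 in fiber. Scaling by library size divides by the total count, crystallins included, and moved the median difference of all 12427 tested genes from -0.03 to -1.23 (log2 fiber over epithelium). The total counts of libraries were 7658794 to 11819117 for epithelium and 13010174 to 21617737 for fiber. The ribosomal precursor Rn45s took 5.29 to 17.4% of counts in epithelium and 3.98 to 28.9% in fiber, with the highest share in E18.5 fiber replicate 2. Values below are in CPM, counts divided by the scaled library total, with TMM scaling unless library size is named, and a member is called when edgeR's quasi-likelihood test gave a Benjamini-Hochberg adjusted p under 0.05 over all tested genes and the change was at least 2-fold.

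Sequences around the start sites are shown first for some of the members on which the results turn. Each one shown has a match to the NRF1 motif or the ETS motif described below. They are subunits of complex II that differed unequally between the tissues, and Uqcrc1 and Ndufa11 with high differences. Cox6a1 and Cox8a are added because their difference grew with stage. Ndufc1, Ndufa1, Cox5a and Atp5b, on which the results also turn, had no match listed for either motif and are not shown. The promoter windows are those of RefSeq on GRCm38.p6, from 250 bases before to 50 after each start, and 74 of the 90 members matched. Sdhc, Cox6a2 and Ndufa4l2 were among the members without a window, so they were not searched for motifs. Capitals mark matches, on either strand, to 2 motifs of known regulators of respiratory genes: GCGCA, any base and GCGC, the motif of NRF1, and CCGGAAG, the core bound by ETS factors such as GABP. Each stretch is printed 5′ to 3′ on the strand of its gene and ends at most 30 bases past the start. A further NRF1 match in Uqcrc1 and a further ETS match in Cox8a lie beyond that end and are not shown.
Sdhb, chr4:140961262-140961298, plus strand: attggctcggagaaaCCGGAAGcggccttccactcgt
Sdha, chr13:74350226-74350353, minus strand: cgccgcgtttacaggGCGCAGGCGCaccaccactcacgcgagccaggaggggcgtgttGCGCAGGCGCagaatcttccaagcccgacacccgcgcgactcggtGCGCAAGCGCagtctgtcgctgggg
Sdhd, chr9:50603874-50603943, minus strand: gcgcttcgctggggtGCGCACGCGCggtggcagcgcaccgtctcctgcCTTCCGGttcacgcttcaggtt
Uqcrc1, chr9:108936638-108936677, plus strand: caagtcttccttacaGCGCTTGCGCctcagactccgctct
Ndufa11, chr17:56717687-56717726, plus strand: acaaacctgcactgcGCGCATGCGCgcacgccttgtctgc
Cox6a1, chr5:115348953-115349135, minus strand: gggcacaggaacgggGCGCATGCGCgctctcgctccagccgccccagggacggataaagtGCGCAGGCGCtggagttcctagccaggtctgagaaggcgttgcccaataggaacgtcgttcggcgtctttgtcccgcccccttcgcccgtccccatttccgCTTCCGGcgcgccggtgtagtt
Cox8a, chr19:7217600-7217636, minus strand: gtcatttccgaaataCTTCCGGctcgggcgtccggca

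The NRF1 motif was found in 23.75% of the 80 member windows and in 4.60% of all 32851 RefSeq promoter windows of the same length. The ETS motif was found in 22.5% against 8.86%, AAGATGG (the motif of YY1) in 17.5% against 6.34%, and TCAAGGTCA (the motif of the ERR receptors) in 2.5% against 0.423%. By presence of each motif in the members, the median log2 fiber over epithelium was 1.004 with (n = 17) and 1.08 without (n = 56) the NRF1 motif, 1.20 (n = 18) and 0.99 (n = 55) for ETS, 1.03 (n = 13) and 1.05 (n = 60) for YY1, and 0.24 (n = 2) and 1.08 (n = 71) for ERR. A match is a run of letters in a window and was not tested as a binding site.

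Averaged over the 4 stages with TMM scaling, 47 of the 89 tested members were called higher in fiber and 2 were called lower. Over all tested genes, 15.7% were called higher and 22.2% lower. The median member was 1.03 higher on the log2 scale, against -0.03 for all genes. With library size, 1 member was called higher (4.72% of all genes) and 9 were called lower (59.7%), and the member median was -0.18 against -1.23. The distance between the members and all genes was thus 1.05 with TMM and 1.06 with library size, while the sign of the typical member's difference depended on the scaling. Ndufs5, an accessory subunit of complex I, is listed at 0 in all 24 libraries and is the member that was not tested. Whether near-identical copies elsewhere in the genome take its reads was not tested, so this 0 is uncertain. At the 2-fold threshold, 12 called members lay within 0.2 log2 above it and 12 uncalled members within 0.2 below it.

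**Figure D1:**
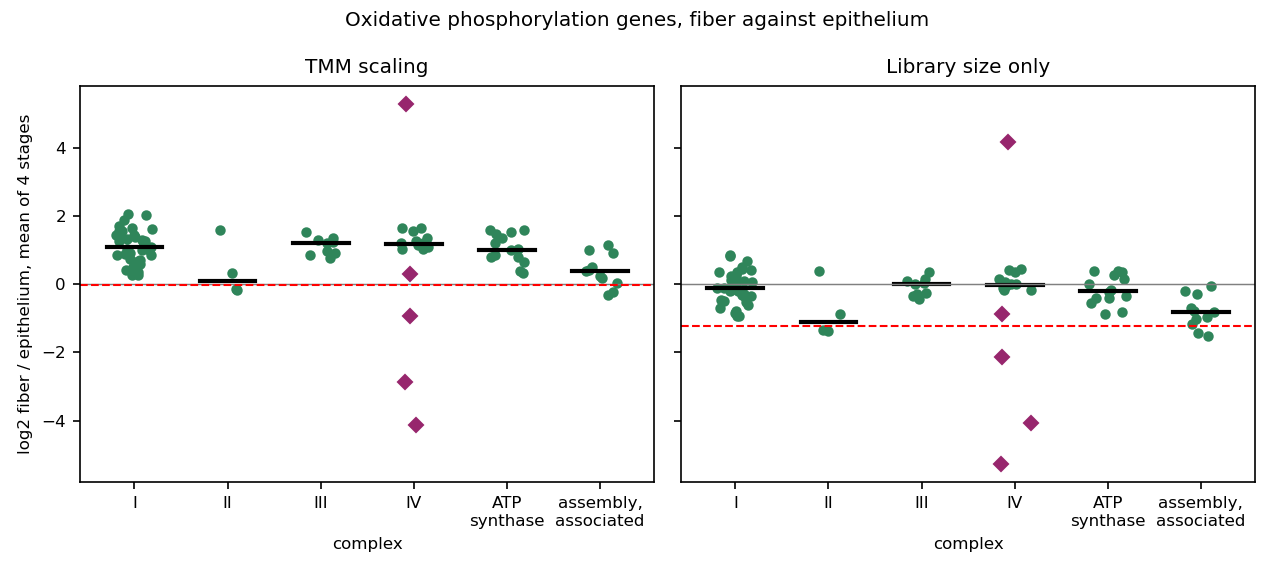
Log2 fiber over epithelium averaged over 4 stages (y axis) for each tested member, by complex (x axis), with TMM scaling in one panel and library size in the other; diamonds are minor tissue isoforms, black bars are medians and the red dashed line is the median of all 12427 tested genes. With TMM the medians are 1.09 for complex I, 0.08 for complex II, 1.20 for complex III, 1.18 for complex IV and 1.005 for ATP synthase, and with library size they are -0.12, -1.12, -0.01, -0.03 and -0.20.

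The difference was present at each stage with TMM scaling. At E14.5, 22 members were called higher and 2 lower (all genes, 14.0% and 19.4%). Next came 37 and 3 for E16.5 (14.6% and 20.4%), 58 and 3 for E18.5 (17.4% and 24.2%) and 58 and 2 for P0.5 (17.5% and 24.5%). The median log2 difference was 0.75, 0.91, 1.18 and 1.31 in that order. With library size the called members were, in stage order, 1 higher and 5 lower (6.04% and 41.4%), 1 and 9 (5.09% and 54.2%), 1 and 18 (4.32% and 68.9%) and, after birth, 2 and 13 (4.23% and 67.9%). The higher ones at P0.5 with library size were Cox6a2 (log2 3.75) and Ndufa1 (log2 1.07).

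Separation of the libraries gave the same division between scalings. With TMM, 60 members had all 12 fiber libraries above all 12 epithelium libraries (24.4% of all genes) and 1, Cox6b2, had them all below (24.7%). With library size, 2 members, Cox6a2 and Ndufc1, stood above (3.85%) and 22 below (64.1%). The 22 included Sdha, Sdhc, Sdhd, Atp5a1, Ndufs1, Ndufv1 and Ndufv2.

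Summed by symbol stem, with assembly genes included and Ndufa4 and Ndufa4l2 counted under their Nduf stem, all tested members together took 3253 ± 206 CPM in E14.5 epithelium (SD, n = 3, as for all sums) and 3134 ± 230 in P0.5 epithelium. In fiber the sum was 5410 ± 98.7, 6159 ± 338, 7553 ± 227 and 8263 ± 414 over the 4 stages in order. The lowest fiber library (5319) lay above the highest epithelium library (3425). With library size, the sum was 4764, 4761, 4889 and 4896 in epithelium from E14.5 to P0.5, and 4523, 4405, 4186 and 4720 in fiber. The E18.5 fiber libraries were at 4707, 3304 and 4547, so the low mean came from replicate 2. Rn45s took 28.9% of the counts of that library, against 8.91 and 6.55% in replicates 1 and 3. With library size the tissues overlapped. In bulk RNA of this kind, fewer cells of a type and less RNA per cell cannot be told apart.

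By complex, the summed log2 fiber over epithelium with TMM was 1.15 for complex I, 0.57 for complex II, 1.16 for complex III, 1.27 for complex IV and 1.03 for ATP synthase, with a replicate SD of 0.04 to 0.12. With library size the same sums differed by -0.06, -0.64, -0.06, 0.06 and -0.19, with a replicate SD of 0.11 to 0.15. On that scale the differences of complexes I, III and IV were smaller than their SD. This SD is the spread of single libraries within a group, not the error of a difference averaged over stages, and the sums were not tested. Leaving out assembly genes and minor isoforms and placing Ndufa4 in complex IV gave 1.21, 0.57, 1.16, 1.33 and 1.03 with TMM. Complex II had the smallest sum difference of the 5 complexes under each of these settings with TMM, and the most negative with library size.

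**Figure D2:**
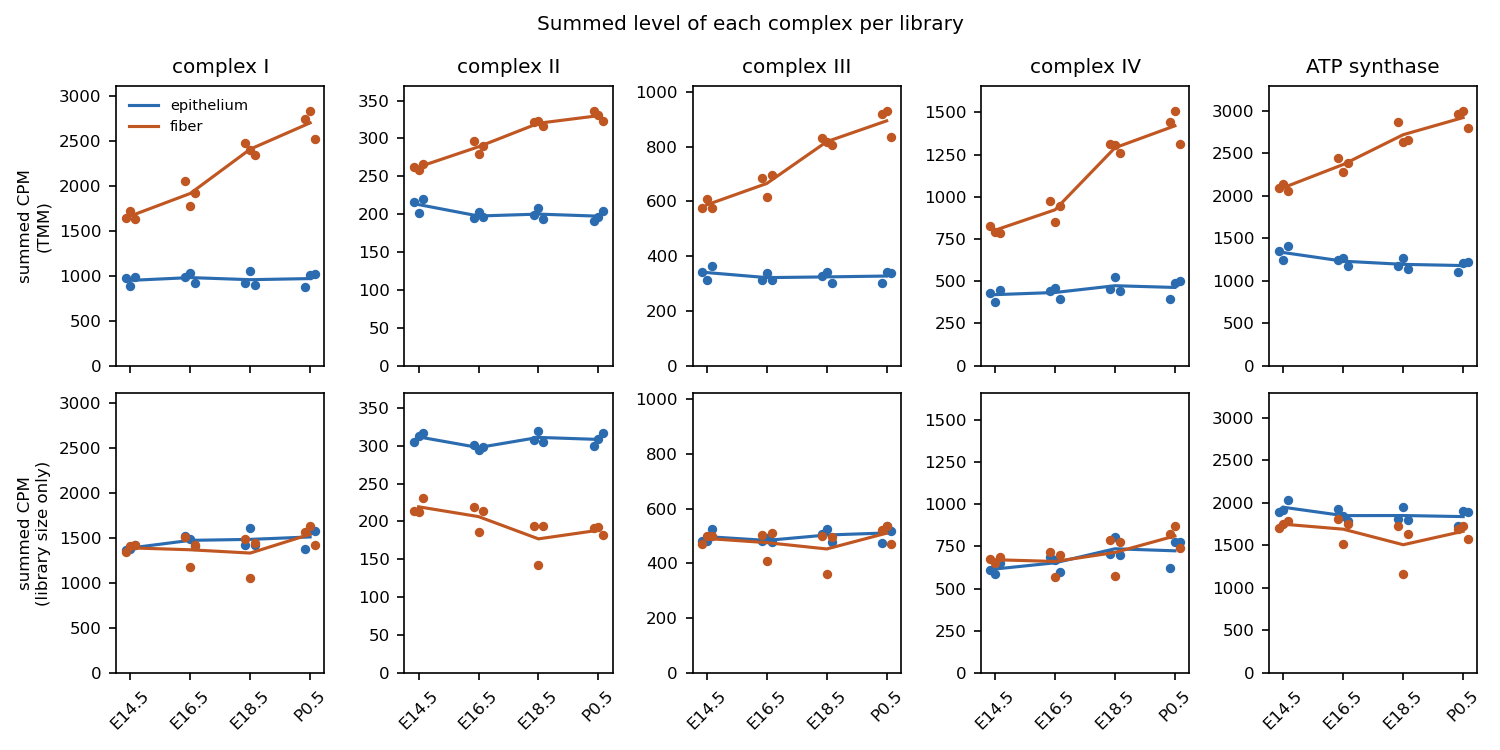
Summed CPM of the members of each complex (y axis, from 0) in every library by stage (x axis), epithelium and fiber in separate colours, with lines through the group means; the upper and lower panels use the 2 scalings. Complex I runs from 949 to 969 CPM in epithelium and from 1665 to 2702 in fiber between E14.5 and P0.5 with TMM, while complex II runs from 262 to 330 in fiber.

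The makeup of the members' counts does not depend on scaling, because it is a share within each library. Complex II took 6.54, 6.26, 6.37 and 6.31% of all member counts in epithelium from E14.5 to P0.5, and 4.85, 4.70, 4.24 and 3.998% in fiber. The lowest epithelium library (6.05%) lay above the highest fiber library (4.995%). Complex IV took 12.9, 13.7, 15.03 and 14.7% in epithelium and 14.8, 14.97, 17.1 and 17.2% in fiber. ATP synthase held 40.9, 38.9, 37.9 and 37.6% in epithelium and 38.7, 38.4, 36.0 and 35.3% in fiber. Complexes I and III differed less, at 29.2 to 31.0% and 30.8 to 32.7% for complex I and 10.2 to 10.4% and 10.8 to 10.9% for complex III (group means, epithelium then fiber).

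Complex I oxidises NADH. Its core subunits, inherited from bacteria, are encoded partly in the nucleus and partly in mitochondrial DNA, and the table holds 7 nuclear core and 29 accessory subunits. Of its 35 tested members, 21 were called higher in fiber with TMM and 0 lower, with log2 differences from 0.28 to 2.06. With library size none reached the threshold in edgeR in either direction, while 12 were higher and 16 lower at an unadjusted p under 0.05 whatever the fold. The share of all genes at an unadjusted p was not computed, so here and below such counts carry no comparison with all genes. The 7 core subunits had a median of 0.84, and 2 of them passed: Ndufs3 at 1.26 and Ndufs8 at 1.25, both of the arm that extends into the matrix. With library size they were at 0.06 and 0.05.

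The members of complex I with the highest difference were accessory subunits. Ndufc1 ranged from 14.6 CPM through a median of 17.8 to 23.4 in epithelium and from 51.0 through 83.2 to 113 in fiber. Its log2 difference was 2.06 ± 0.07 (SE) with edgeR's adjusted p = 3.08e-19, and 0.86 with library size, where the ranges of 21.2 to 36.8 and 38.4 to 65.3 still did not overlap. Ndufa11, an accessory subunit of the membrane arm, ranged from 12.9 through 15.5 to 22.3 and from 40.4 through 70.5 to 106, a log2 difference of 2.04 ± 0.06 (adjusted p = 3.41e-20 in edgeR; 0.83 with library size). Its fiber libraries were lowest at E14.5 (40.4, 47.0 and 43.1) and highest at P0.5 (106, 95.4 and 105).

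At the other end stood Ndufab1, the mitochondrial acyl carrier protein, and Ndufa12, an accessory subunit of the matrix arm. Ndufab1 ranged from 5.61 through 7.02 to 8.56 CPM in epithelium and from 5.98 through 9.20 to 10.9 in fiber, so the tissues overlapped (log2 0.28 ± 0.08). Ndufa12 also overlapped, at 2.97 through 5.33 to 7.56 against 4.04 through 6.57 to 8.99 (log2 0.28 ± 0.11). Both were at -0.93 and -0.92 with library size.

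The large catalytic subunits of complex I had small differences. Ndufs1, which carries iron-sulfur clusters of the electron path, ranged from 46.4 through 56.0 to 66.4 CPM in epithelium and from 58.0 through 74.2 to 81.5 in fiber (log2 0.35 ± 0.03, below the 2-fold threshold). Ndufv1, which binds NADH and flavin mononucleotide, was at 26.9 through 31.2 to 35.5 and at 42.2 through 46.2 to 56.2 (log2 0.58 ± 0.05). With library size these differences were -0.86 and -0.62, so their sign depended on the scaling.

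Complex II, succinate dehydrogenase, has 4 subunits, all nuclear: Sdha holds the flavin and the succinate site, Sdhb carries iron-sulfur clusters, and Sdhc and Sdhd anchor them in the membrane. Its members were unequal in the 2 tissues. In epithelium Sdhb (chr4:140961203-140979193, GENCODE M21 on GRCm38) was at 46.5, 41.3 and 42.2 CPM at E14.5, then 43.2, 44.4 and 40.1, then 36.3, 39.5 and 34.8, and at P0.5 36.5, 40.4 and 38.8. In fiber it was at 89.8, 96.7 and 97.5, then 119, 104 and 109, then 136, 145 and 134, then 156, 146 and 139. Every fiber library lay above every epithelium library, and the fiber values were highest at P0.5. Sdhb was the 1 member of complex II called higher in fiber, at log2 1.58 ± 0.03 (edgeR, adjusted p = 8.98e-23). With library size it was at 0.38, with 54.9 to 66.7 CPM in epithelium and 64.2 to 88.7 in fiber.

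Sdhc (chr1:171127165-171150603) did not follow Sdhb. In stage order it was at 26.7, 24.4 and 26.6 CPM in epithelium, then 20.9, 23.6 and 20.99, then 25.9, 24.1 and 26.9, then 23.8, 25.8 and 27.7. In fiber it was at 22.0, 22.4 and 20.7, then 25.6, 20.5 and 20.4, then 21.6, 22.5 and 22.0, then 20.8, 21.5 and 21.2. The tissues overlapped with TMM (log2 -0.19 ± 0.04, under 2-fold), while with library size Sdhc was at 32.0 to 42.8 in epithelium and 9.93 to 18.9 in fiber and was called lower (-1.39). Sdhd, the other anchor, was at -0.15 ± 0.04 with TMM and was called lower at -1.36 with library size. Sdha was at 0.32 ± 0.03 with TMM, below the threshold, and at -0.88 with library size.

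The ratio of Sdhb to Sdhc counts within a library is free of scaling. These ratios were formed after the values were seen and carry no test. Sdhb over Sdhc was 1.68 ± 0.08, 1.95 ± 0.10, 1.45 ± 0.18 and 1.50 ± 0.09 in epithelium from E14.5 to P0.5 (SD, n = 3). In fiber it was 4.37 ± 0.32, 5.003 ± 0.35, 6.28 ± 0.19 and 6.95 ± 0.49. Sdhb over Sdha was 0.40 to 0.46 in epithelium (group means) and 0.87, 0.93, 1.16 and 1.19 in fiber. Thus the mRNAs of complex II stood in different proportions in the 2 tissues whatever the scaling.

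**Figure D3:**
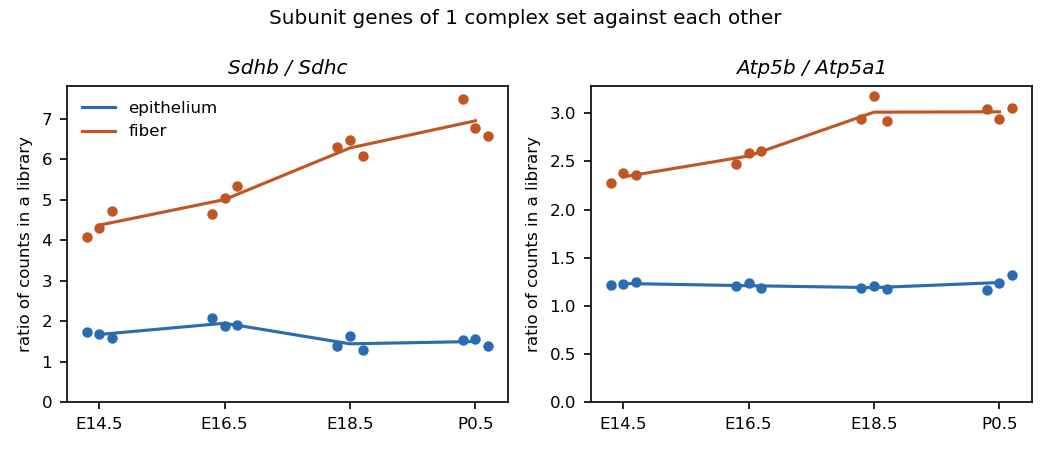
Ratio of counts within each library (y axis) by stage (x axis) for Sdhb over Sdhc and Atp5b over Atp5a1, with epithelium and fiber in separate colours and 1 point per library. Group means of Sdhb over Sdhc lie between 1.45 and 1.95 in epithelium and between 4.37 and 6.95 in fiber, and those of Atp5b over Atp5a1 between 1.19 and 1.24 and between 2.34 and 3.02.

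Complex III passes electrons from ubiquinol to cytochrome c. Of its 9 members, 5 were called higher in fiber with TMM and 0 lower (median log2 1.20), and none in either direction with library size (median -0.01; 2 higher and 4 lower in edgeR at an unadjusted p under 0.05 whatever the fold). Uqcrc1, a core protein of the matrix side, was at 49.1 through 55.1 to 71.4 CPM in epithelium and 119 through 151 to 174 in fiber, without overlap (log2 1.36 ± 0.03, adjusted p = 8.96e-22 in edgeR; 0.15 with library size). Uqcrq, a small subunit, was at 18.4 through 22.2 to 29.2 and 46.1 through 71.3 to 95.3 (log2 1.54 ± 0.08; 0.34 with library size). The 2 redox-active subunits had smaller differences: the Rieske iron-sulfur protein Uqcrfs1 was at 0.76 ± 0.03 and cytochrome c1, Cyc1, at 0.85 ± 0.04. With library size they were at -0.44 and -0.36.

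Complex IV, cytochrome c oxidase, passes electrons to oxygen. Of its 16 members, 12 were called higher in fiber and 2 lower with TMM (median 1.18), and 1 higher and 3 lower with library size (median -0.03). The 11 widely expressed nuclear subunits, Ndufa4 among them, are described before the 5 minor isoforms. Cox4i1, which binds regulatory adenine nucleotides, was at 77.6 through 92.3 to 105 CPM in epithelium and 173 through 244 to 316 in fiber (log2 1.34 ± 0.04; 0.14 with library size). Cox6a1 was at 30.5 through 38.2 to 44.5 and 61.5 through 129 to 179 (log2 1.65 ± 0.06; 0.45). Cox5a, a subunit facing the matrix, was at 15.7 through 21.8 to 23.8 and 40.5 through 64.7 to 96.5 (log2 1.57 ± 0.05; 0.36). None of these 3 overlapped between tissues with TMM. Ndufa4, first assigned to complex I and now placed in complex IV, was at 1.02 ± 0.05, and without P0.5 epithelium replicate 1 it was at 0.99 and lost its call.

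The minor isoforms of complex IV replace a widely expressed subunit in some tissues. Among them Cox6a2, Ndufa4l2 and Cox6b2 had the largest differences of all members in size, at low levels. Cox6a2, the heart and skeletal muscle form of subunit 6a (chr7:128205435-128206387), had 399 counts over the 12 fiber libraries and 14 over the 12 epithelium libraries, that is 3.01 and 0.0795 CPM on the summed counts with TMM and 1.98 and 0.121 with library size. The ratio of these summed rates was 37.9 with TMM (exact 95% interval 22.3 to 69.9) and 16.4 with library size (9.67 to 30.3), where the intervals cover counting error only. Per library, Cox6a2 was at 0 to 0.158 CPM in epithelium and at 1.20 through 3.11 to 4.43 in fiber with TMM. It was called higher with both scalings, at log2 5.28 ± 0.25 with TMM and 4.16 with library size. Its exons overlap those of Itgad, which was not analysed here.

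Cox6b2, the form of subunit 6b known from testis (chr7:4751792-4753094), went the other way. In epithelium it was at 3.96, 3.52 and 4.32 CPM at E14.5, then 4.11, 4.72 and 4.35, then 5.59, 5.95 and 5.04, and 5.67, 5.83 and 5.46 after birth. In fiber no library exceeded 1.06 and the lowest was 0.17. It was called lower in fiber at log2 -2.87 ± 0.12 (edgeR, adjusted p = 3.63e-17) with TMM and -4.07 with library size. The widely expressed partner Cox6b1 was called higher with TMM, at 1.08 ± 0.05, and stood at -0.13 with library size.

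Ndufa4l2, a paralog of Ndufa4 known as a target of hypoxia-inducible factor (chr10:127514967-127517154, plus strand), was at 1.11, 1.52 and 1.20 CPM in E14.5 epithelium, then 1.32, 1.86 and 2.77, then 5.59, 5.01 and 5.28, and 5.15, 3.65 and 2.59 at P0.5. In fiber it had 0 counts in all 3 libraries at E14.5, and elsewhere between 0.083 and 1.23 CPM. At E14.5 it had 56 counts in epithelium against 0 in fiber. With fiber set at a limit of 3 counts over the group, the ratio of epithelium to fiber was 16.0 with TMM and 28.2 with library size. These ratios leave out the counting error of the 56 counts, so the true fold may be smaller. In the 3 later stages the ratio of epithelium to fiber rates with TMM was, in order, 10.8 (exact 95% interval 4.78 to 30.3), 6.32 (4.23 to 9.82) and 11.2 (5.95 to 23.7). With library size it was 22.9 (10.1 to 64.2), 17.6 (11.7 to 27.3) and 30.6 (16.2 to 64.8). It was called lower in the average over stages with both scalings. An exon of Ndufa4l2 overlaps Shmt2 on the other strand. Whether the authors counted by strand is not stated in the labels.

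Cox4i2, the form of subunit 4 known from lung and from low oxygen, was at 0.414 to 2.46 CPM in epithelium and 0.0934 to 1.20 in fiber, with overlap. Its averaged difference of -0.94 ± 0.21 missed the 2-fold threshold with TMM, and it was called lower at -2.13 with library size. With TMM it passed at -1.05 without E14.5 fiber replicate 3, at -1.11 without E16.5 fiber replicate 1 and at -1.01 without E18.5 fiber replicate 2. Cox7a1, the muscle form of subunit 7a, had 1 to 14 counts per library and a difference of 0.31 ± 0.23 (adjusted p = 0.247 in edgeR).

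**Figure D4:**
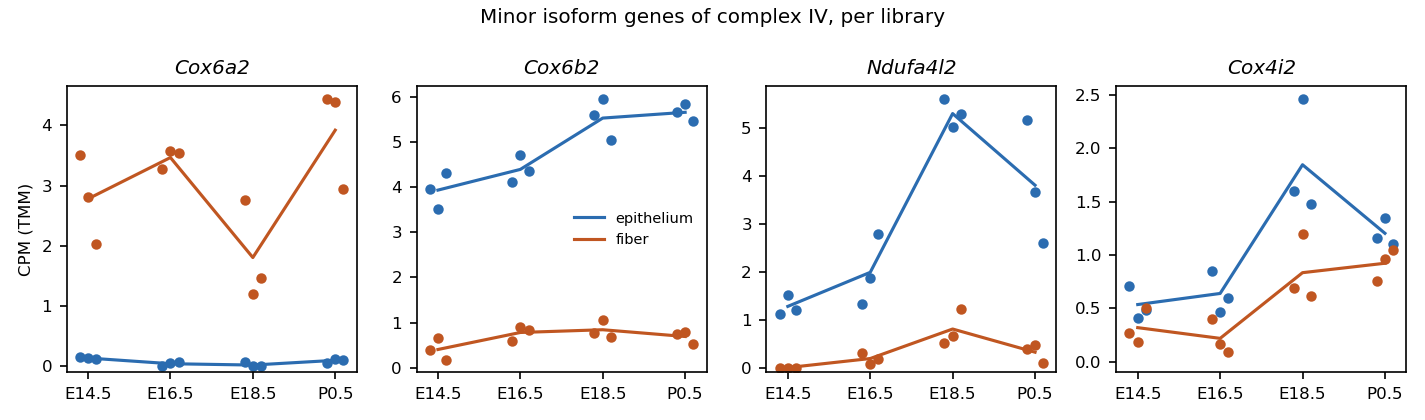
CPM with TMM scaling (y axis, a separate scale in each panel) of Cox6a2, Cox6b2, Ndufa4l2 and Cox4i2 in every library by stage (x axis), with epithelium and fiber in separate colours. Cox6a2 is at 0.158 or less in all epithelium libraries, Cox6b2 is at 1.06 or less in all fiber libraries, and Ndufa4l2 reaches 5.59 in E18.5 epithelium.

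Balance between an isoform and its partner was compared as a ratio of counts within each library, which no scaling alters. A permutation of tissue labels within stages, taken exactly over all 160000 arrangements (two-sided), was run on 7 pairs with 0.5 added to each count. The log2 ratio was lower in fiber for Cox6b2 over Cox6b1 (-3.92), Ndufa4l2 over Ndufa4 (-4.62), Cox4i2 over Cox4i1 (-2.26) and Cox7a2l over Cox7a2 (-0.78), and higher for Cox6a2 over Cox6a1 (3.22). The tissues did not overlap in these 5 pairs, and each had the smallest p the permutations can give, 1.25e-05 (adjusted over 7 pairs, 1.75e-05). Cox6a2 had 0 to 2 counts per epithelium library and 9 to 55 in fiber, so its pair entered the test through fiber. Its p is therefore not independent evidence of the direction. With 1 added to each count, Cox6a2 over Cox6a1 was at 2.75 and Ndufa4l2 over Ndufa4 at -4.24, so these sizes depend on the amount added. Cox7a1 over Cox7a2 (-0.84, adjusted exact p = 0.0100) and Atp5g1 over Atp5g3 (0.94, adjusted exact p = 4.375e-05) overlapped. As a share of the pair, Cox6b2 made up 7.21 to 9.26% in epithelium and 0.457 to 0.865% in fiber (group means). Cox6a2 made up 0.062 to 0.394% and 1.18 to 3.66%, so the widely expressed forms remained in the majority in both tissues.

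Markers of vessel wall cells varied alongside some of these isoforms. The summed CPM of the mural cell markers Rgs5, Pdgfrb, Cspg4 and Acta2 (4 of 5 fixed markers tested, none at 0 in a group) was 80.5 to 110 in E14.5 epithelium, then 116 to 140, then 249 to 293 and at P0.5 281 to 308, and 4.11 to 23.1 over all fiber libraries. Ndufa4l2 and Cox4i2 were higher in epithelium and at the later stages in the same libraries. Endothelial markers (8 of 8 tested) summed to 195 to 414 in epithelium and at most 25.7 in fiber. Their part in the Ndufa4l2 and Cox4i2 values was not tested.

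The tissue labels matched their markers. The lens fiber marker list summed to 1258 to 2197 CPM in epithelium and 53023 to 147244 in fiber. Of the lens epithelium list, Foxe3, Cdh1, Gja1 and Pax6 were lower in fiber (log2 -3.80, -4.67, -4.96 and -1.69), and Cryab, which fibers also express, was higher (1.17).

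ATP synthase makes ATP from ADP in its F1 head and conducts protons in its Fo part. Of its 14 members, 7 were called higher in fiber with TMM and 0 lower, with log2 differences from 0.32 to 1.58, and none was called in either direction with library size (median -0.20; 4 higher and 8 lower in edgeR at an unadjusted p under 0.05 whatever the fold). Its catalytic β subunit, Atp5b (chr10:128083273-128090391), had the highest level per kilobase of merged annotated exons of all members, at a mean of 398 CPM per kb. In epithelium it was at 481, 446 and 498 CPM at the first stage, then 407, 417 and 389, then 372, 391 and 352, then 348, 373 and 387. In fiber it was at 947, 985 and 922, then 1077, 1053 and 1075, then 1287, 1182 and 1163, then 1275, 1275 and 1221. The epithelium values were lowest and the fiber values highest in the later stages. The averaged difference was 1.47 ± 0.03 (edgeR, adjusted p = 3.24e-23), and 0.26 with library size.

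Atp5a1, the α subunit that alternates with β in the same hexamer, was at 293 through 325 to 397 CPM in epithelium and 371 through 413 to 438 in fiber. These ranges overlapped, and its difference was 0.32 ± 0.03, under the threshold, with -0.89 at library size. Atp5c1, the γ subunit of the central stalk, was alike at 0.39 ± 0.03 and -0.82. Within libraries, Atp5b over Atp5a1 was 1.23, 1.21, 1.19 and 1.24 in epithelium and 2.34, 2.56, 3.01 and 3.02 in fiber (group means, chosen after the values were seen, no test). Atp5e, the ε subunit, and Atp5j2, the f subunit of Fo, had the highest differences at 1.58 ± 0.08 and 1.58 ± 0.06, and both were at 0.38 with library size. The membrane ring protein is encoded by several genes with an identical mature product: Atp5g1 was called higher at 1.54 ± 0.16, while Atp5g3, the more abundant of the pair, was at 0.64 ± 0.05. With library size they were at 0.34 and -0.56. Haus1 on the other strand overlaps an exon of Atp5a1.

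Among the 11 assembly and associated genes, 1 was called higher with TMM, Ndufaf8 at 1.14 ± 0.09, and 0 lower, with a median of 0.38. With library size 4 were called lower: Ndufaf4 (-1.18), Ndufaf5 (-1.53), Ndufaf7 (-1.04) and Atp5sl (-1.45). Ndufaf5, a complex I assembly factor that modifies a core subunit, was at 6.47 through 8.998 to 10.8 CPM in epithelium and 6.33 through 7.23 to 9.43 in fiber. Cox7a2l, which helps join complexes III and IV into supercomplexes, was at 0.38 ± 0.04, against 1.15 ± 0.05 for its relative Cox7a2.

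Change in development was compared within each tissue. From E14.5 to P0.5, 18 members were called higher and 0 lower in fiber (all genes, 6.69% and 5.24%), with a median log2 change of 0.69 against -0.02 for all genes. In epithelium 4 were called higher and 0 lower (10.1% and 3.21%), with a median of 0.09 against 0.01. With library size, fiber had 2 called higher and 1 lower (2.95% and 17.4%) at a median of 0.14 against -0.56, and epithelium 4 and 0 (11.3% and 2.43%) at 0.19 against 0.10. Markers of other cells also differed between these stages with TMM. Mesenchyme markers (6 of 7 tested) had a median log2 change of -2.75 in epithelium, with 6 called lower, and -2.98 in fiber, with 4 called lower. Red cell markers (3 of 7 tested) had medians of -9.37 and -6.78, with all 3 called lower in both tissues. Their part in the members' changes was not tested.

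The 18 that rose in fiber with TMM included 9 of complex I, 5 of complex IV, 3 of ATP synthase and 1 of complex III, and none of complex II or the assembly genes. The medians by complex were 0.72 for I, 0.12 for II, 0.66 for III, 0.80 for IV, 0.76 for ATP synthase and 0.07 for assembly genes, and 0.35 for the core subunits of complex I. They were Atp5l (1.56 ± 0.25) and Atp5k (1.45) of Fo, Atp5e (1.25), Cox6a1 (1.25), Cox5a (1.14) and Cox8a (1.14) of complex IV, Uqcr10 (1.08), and Ndufa11 (1.23), Ndufa1 (1.20), Ndufa5 (1.20), Ndufa2 (1.19), Ndufb6 (1.19), Ndufa6 (1.18), Ndufb2 (1.16), Ndufs6 (1.01) and Ndufc1 (1.0004) of complex I. The list was completed by Cox4i2 (1.52 ± 0.45) and Ndufa4l2, which had 10 counts at P0.5 against 0 at E14.5. With E14.5 set at a limit of 3 counts over the group, the ratio for Ndufa4l2 was 4.19 with TMM and 2.87 with library size. These ratios leave out the counting error of the 10 counts, so the true fold may be smaller. With library size, Atp5l (1.01) and Ndufa4l2 kept their calls and Ndufaf4 was called lower (-1.16).

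The 4 that rose in epithelium did so with both scalings: Cox7a1 (2.05 ± 0.47), Ndufa4l2 (1.55 ± 0.30), Atp5l (1.34 ± 0.28) and Cox4i2 (1.17). Cox7a1 had 1 to 3 counts per library at E14.5 and 9 to 14 at P0.5. Atp5l, a subunit of Fo, had 14 to 16 counts at E14.5 and 36 to 48 at P0.5. Its gene, like Ndufb4 and Cox7c, is a kind for which near-identical copies elsewhere in the genome may take reads, so its level is uncertain. Retina markers (6 of 8 tested) summed to 5.46 to 26.5 CPM in epithelium at E14.5 and E16.5 and 102 to 156 at E18.5 and P0.5, and pigment cell markers (6 of 6 tested) to 5.66 to 15.5 and then 85.8 to 215. Their part in these changes was not tested.

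Between neighbouring stages few members passed. From E14.5 to E16.5, edgeR called 0 members in either tissue (all genes in epithelium 1.71% higher and 0.821% lower, in fiber 1.46% and 1.61%). DESeq2 called 0 in epithelium and 1 higher in fiber. At an unadjusted p under 0.05, whatever the fold, 8 were higher and 10 lower in epithelium and 42 higher and 0 lower in fiber. The share of all genes at that threshold was not computed, so these counts cannot be read as particular to the members. Counts by adjusted p alone, with their shares of all genes, are given with the dependence on processing. From E16.5 to E18.5, Cox4i2 (1.53) and Ndufa4l2 (1.41) rose in epithelium, and Cox4i2 (1.83), Ndufa4l2 (2.13) and Ndufb4 (1.19) rose in fiber (6.75% and 0.547% of all genes in epithelium, 1.91% and 0.724% in fiber). From E18.5 to P0.5, edgeR and DESeq2 called none in epithelium (0.579% and 0.426%; 3 higher and 4 lower at an unadjusted p under 0.05) and Cox6a2 (1.08) rose in fiber (0.298% and 0.241%), a call that was lost with DESeq2 and when E18.5 fiber replicate 3 or P0.5 fiber replicate 1 or 2 was left out. With library size, the 3 steps gave 0 and 0 (1.81% and 0.748% of all genes), 2 and 0 (7.11% and 0.491%), and 0 and 0 (0.507% and 0.386%) in epithelium. In fiber they gave 0 and 0 (0.958% and 2.89%), 2 and 1 (1.02% and 2.84%), and 0 and 0 (0.274% and 0.177%).

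**Figure D5:**
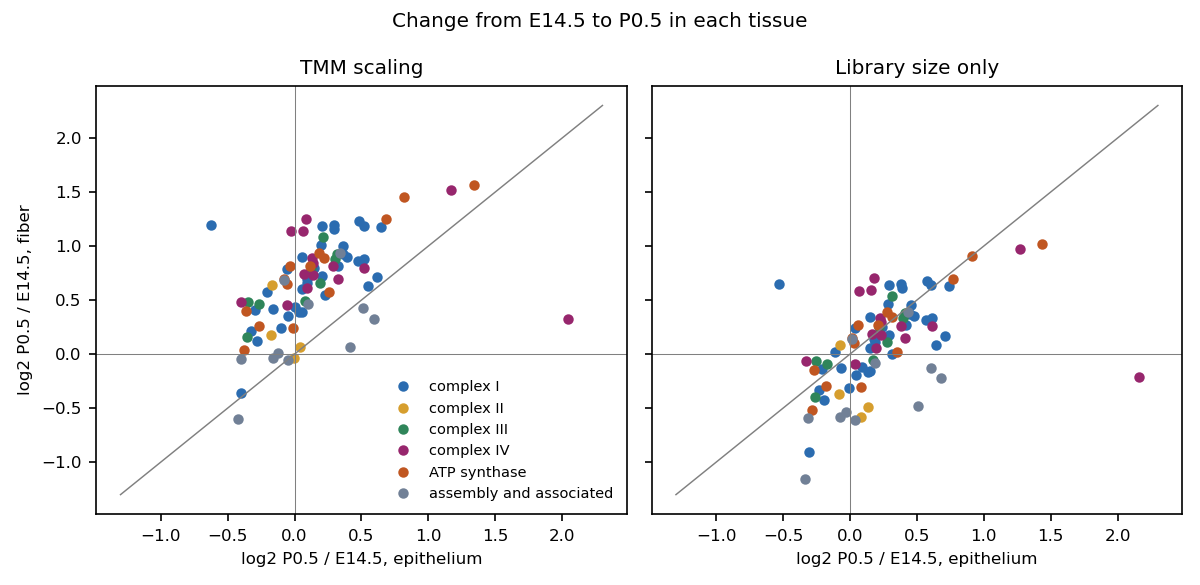
Log2 change from P0.5 over E14.5 in epithelium (x axis) and fiber (y axis) for each tested member except Ndufa4l2, which had 0 counts in E14.5 fiber; 1 panel per scaling, with the diagonal of equal change. With TMM most points lie above the diagonal, with medians of 0.09 in epithelium and 0.69 in fiber, and with library size the medians are 0.19 and 0.14.

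Whether the tissue difference itself changed between E14.5 and P0.5 was tested directly as an interaction. With TMM, 4 members were called with a growing difference (3.77% of all genes) and 1 with a shrinking one (7.92%), and the median was 0.55 against -0.04 for all genes. With library size, 1 was called in each direction (1.11% and 26.2%), with a median of -0.09 against -0.68. The 4 were Ndufa1 (1.82 ± 0.17, adjusted p = 2.12e-08 in edgeR), Cox6a1 (1.17 ± 0.17), Cox5a (1.16 ± 0.15) and Cox8a (1.07 ± 0.20). Cox6a1 stood at 36.3, 30.5 and 40.4 CPM in E14.5 epithelium and 32.0, 40.1 and 41.7 at P0.5, and at 77.5, 78.0 and 61.5 in E14.5 fiber against 179, 178 and 159.97 at P0.5. Cox5a stood at 20.1, 18.8 and 23.8 and at 15.7, 22.7 and 23.4 in epithelium, and at 41.8, 40.5 and 40.9 and at 87.6, 96.5 and 86.6 in fiber. For both genes the epithelium values of the 2 stages overlapped and the fiber values did not.

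Ndufa1, a small membrane subunit of complex I encoded on the X chromosome (chrX:37187588-37191163, minus strand), kept its interaction with library size (1.18, adjusted p = 1.12e-05 in edgeR). In epithelium it was at 71.9, 60.3 and 73.6 CPM at E14.5, then 88.2, 88.0 and 67.9, then 38.9, 53.9 and 41.6, and 39.2, 51.4 and 43.0 after birth. In fiber it was at 115, 112 and 107, then 153, 118 and 145, then 201, 213 and 219, then 259.9, 275 and 231. The epithelium values were lower at the 2 later stages while those of fiber were higher. Rnf113a1, on the opposite strand 82 bases away, was at 20.1, 17.3, 7.99 and 8.73 CPM in epithelium and 165, 297, 344 and 367 in fiber (group means). The annotated exons of these neighbours do not overlap. Whether reads of Rnf113a1 were counted for Ndufa1 was not tested.

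Levels and the length of annotated exons are given as a description. The length merges the exons of all annotated transcripts of a gene, so it can exceed that of any single transcript. It was 4912 bases for Atp5g1 and 4387 for Ndufab1, and a long merged length lowers the value per kilobase. Per kilobase, the highest members after Atp5b were Ndufa1 (285 CPM per kb), Cox4i1 (219), Atp5e (168), Cox8a (167) and Cox6a1 (142), and the lowest were Cox7a1 (0.902), Cox4i2 (1.03), Ndufab1 (1.81) and Ndufa4l2 (1.83). Members with merged exons up to 600 bases had a median log2 tissue difference of 1.29 (n = 14), against -0.44 for other genes of that length. Those of 601 to 1000 bases were at 1.03 (n = 27) against 0.46, those of 1001 to 2000 at 0.99 (n = 34) against 0.17, and those above 2000 at 0.34 (n = 12) against -0.11. Over 87 members, Spearman's rho of difference with length was -0.23, across genes that share libraries.

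Genes that serve the complexes were read from lists fixed for this work, with TMM counts of called genes in the averaged comparison read against the 15.7% and 22.2% of all genes. Of 14 complex I assembly genes, 7 of them members named above, 2 were higher and 0 lower (median 0.32), led by Timmdc1 (1.48). Of 21 complex IV assembly genes 4 were higher and 0 lower (0.44), led by Coa5 (1.80). Of 6 for complex III 1 was higher, Lyrm7 (1.14), and of 4 each for complex II and for ATP synthase 0 were called. With library size, where 59.7% of all genes were lower, the genes called lower were 6 of the 14 for complex I, 1 of the 4 for complex II, 1 of the 6 for complex III, 8 of the 21 for complex IV and 3 of the 4 for ATP synthase, and 0 were higher.

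Electron carriers and coenzyme Q enzymes had 1 of 12 called higher, Coq9 (1.17), and 0 lower, and cytochrome c itself, Cycs, was at 0.14 (adjusted p = 0.287 in edgeR). Of 19 genes of the citric acid cycle and pyruvate entry, 2 were higher and 1 lower: Idh3g (1.45), a regulatory subunit of isocitrate dehydrogenase, led upward, and Suclg2 (-1.97), the GTP-forming succinyl-CoA ligase subunit, was the 1 lower. Of 20 import and inner membrane genes 4 were higher and 0 lower, led by Phb (1.29), and of 9 mitophagy genes 4 were higher and 0 lower, led by Optn (3.55), an autophagy receptor. With library size these 4 lists had 3, 4, 8 and 1 genes called lower (59.7% of all genes), and 1 mitophagy gene was called higher (4.72%).

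Of 16 regulators of mitochondrial biogenesis, 1 was called higher, Esrrg (1.04), and 4 were called lower, with a median of -0.13, against 15.7% and 22.2% of all genes and a median of -0.03. The largest was Ppargc1a (-3.03), the coactivator PGC-1α, which was at 1.86 ± 0.43, 2.39 ± 0.64, 11.1 ± 3.48 and 7.90 ± 1.07 CPM in epithelium from E14.5 to P0.5 and at 1.18 ± 0.13, 0.40 ± 0.30, 0.53 ± 0.19 and 0.34 ± 0.21 in fiber (SD, n = 3). The others called lower were Ppargc1b (-2.10), Esrra (-1.24) and Gabpb2 (-1.15). Retina, pigment and mural cell markers were also higher in epithelium at E18.5 and P0.5, and their part in the Ppargc1a values was not tested. The factors whose motifs were searched were at -0.65 (Nrf1), -0.15 (Gabpa) and 0.19 (Yy1), and the mitochondrial DNA factor Tfam was at -0.10. With library size 11 of the 16 were called lower, against 59.7% of all genes.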

How the data were processed

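Total RNA was sequenced as 100-base paired reads on a HiSeq instrument after ribosomal depletion with a stranded kit, per the labels' protocols. The authors deposited a table of read counts per gene and library. Trim Galore 0.4.1, TopHat2 2.0.13, HTSeq 0.6.1, Cufflinks 2.2.1 with Cuffdiff, and mm10 are named in the submitters' processing notes. Whether reads were counted by strand is not stated there.

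From these counts, edgeR 4.0.16 (R 4.3.3, limma 3.58.1) was fitted with its quasi-likelihood test to all 24 libraries with 1 mean per group. Genes passed edgeR's expression filter with a minimum count of 10 and a minimum total of 15, which left 12427 genes and 89 members. The biological coefficient of variation was 0.0821 with 16 residual degrees of freedom. A call needed a Benjamini-Hochberg adjusted p under 0.05 over all genes and a 2-fold change. The ± on a log2 value is an SE worked back from the test: the absolute log2 value over the square root of the quasi-likelihood F. It is approximate and was not estimated by the fit itself. The contrasts set fiber against epithelium stage by stage and on average, later against earlier stages within a tissue, and the interaction of both. Library size was taken as the second scaling throughout. Alternatives were DESeq2 1.42.0, crystallins left out of the library size, no filter, adjusted p alone, Rn45s left out of TMM, the median of all genes as reference, fits on the compared groups, a replicate block, a pseudocount of 1 for ratios and each library left out in turn. The fit was also run on simulated counts with the same starting composition in both tissues and equally many genes raised and lowered. That simulation cannot judge the choice of scaling.

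Replicates of a group differed beyond sampling noise (chi-square per degree of freedom 4.01 to 334), so none was treated as a repeat. Values by name cover the 2 highest and 2 lowest members of each complex, members called lower, isoform pairs, the 3 largest stage changes and interactions, the core catalytic subunits and the largest change in each related list, and others are named where they carry a count. Members and lists were chosen with earlier results of these data known. Gene positions are from GENCODE M21, where 88 members matched, and promoter windows from RefSeq. Python 3.11.15 with pandas 2.3.3, numpy 2.4.6 and matplotlib 3.10.9 was used for ratios and plots.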

Additional observations from a re-analysis of the deposited data

Results flagged for a closer look

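For 5 members the fiber over epithelium difference changed from E14.5 to P0.5 by edgeR's test of the interaction with TMM scaling: 4 with a growing difference (3.77% of all genes) and 1 with a shrinking one (7.92%). It grew by log2 1.82 ± 0.17 for Ndufa1 (adjusted p = 2.12e-08), by 1.17 ± 0.17 for Cox6a1 (adjusted p = 6.54e-06), by 1.16 ± 0.15 for Cox5a (adjusted p = 1.56e-06) and by 1.07 ± 0.20 for Cox8a (adjusted p = 0.000154). With library size these 4 values were 1.18, 0.53, 0.52 and 0.44, and Ndufa1 alone of the 4 kept its call. Cox8a was at 47.1, 46.4 and 65.2 CPM in E14.5 epithelium and 45.2, 58.4 and 62.7 at P0.5, and at 90.1, 85.0 and 63.1 in E14.5 fiber and 187, 189.8 and 147 at P0.5.

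For Cox7a1 the change was -1.72 ± 0.65 (edgeR, adjusted p = 0.0372), and -2.37 with library size. It rests on 1 to 14 counts per library. The call was lost with DESeq2 (-1.75), with the fit on the compared groups (-1.72), and when any 1 of 7 libraries was left out: E14.5 epithelium replicates 1 and 3, E14.5 fiber replicate 3, P0.5 epithelium replicates 2 and 3, and P0.5 fiber replicates 2 and 3.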

How the results depend on the processing

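Counts are members called higher and lower with TMM scaling unless said otherwise, and the tissue difference is fiber over epithelium. With library size, the averaged difference had 1 and 9, E14.5 1 and 5, E16.5 1 and 9, E18.5 1 and 18, P0.5 2 and 13, and fiber from E14.5 to P0.5 2 and 1. Fiber from E16.5 to E18.5 had 1 lower, fiber from E18.5 to P0.5 0 higher, and the interaction 1 higher. The sums of complexes I to IV and ATP synthase were -0.063, -0.64, -0.055, 0.063 and -0.19. With crystallins left out of the library size, 5 were higher in the average (7.08% of all genes), and over the stages in order 5 (8.49%), 3 (6.98%), 7 (6.60%, with 7 lower, 48.1%) and 22 (8.15%). Fiber from E16.5 to E18.5 then had 1 lower (1.51%), fiber from E18.5 to P0.5 2 higher (0.998%) and the interaction 1 higher (2.16%), and the sums were 0.46, -0.12, 0.47, 0.59 and 0.34.

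Changes of sign in the averaged difference are listed only for the members chosen for values by name, and other members changed sign as well. Of those chosen, the members positive with TMM and negative with library size were Ndufab1 (-0.93), Ndufa12 (-0.92), Ndufs1 (-0.86), Ndufv1 (-0.62), Sdha (-0.88), Uqcrfs1 (-0.44), Cyc1 (-0.36), Ndufa4 (-0.18), Cox6b1 (-0.13), Cox7a1 (-0.87), Cox7a2 (-0.052), Cox7a2l (-0.83), Atp5a1 (-0.89), Atp5c1 (-0.82), Atp5g3 (-0.56), Atp5s (-0.22) and Ndufaf8 (-0.059). With crystallins left out, the members of this list that were negative were Ndufab1 (-0.40), Ndufa12 (-0.40), Ndufs1 (-0.32), Ndufv1 (-0.090), Sdha (-0.35), Cox7a1 (-0.36), Cox7a2l (-0.30), Atp5a1 (-0.36), Atp5c1 (-0.29) and Atp5g3 (-0.028).

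By adjusted p alone in edgeR, 79 and 7 passed in the average (44.0 and 46.4% of all genes), 75 and 5 at E14.5 (38.4% each way), 73 higher at E16.5 (38.2%) and 6 lower at E18.5 (42.5%). From E14.5 to P0.5 there were 26 and 13 in epithelium (30.2 and 28.6%) and 72 and 2 in fiber (27.3 and 27.2%). The steps gave 3 and 6 (10.8 and 12%), 5 and 4 (17.0 and 13.8%), then 1 and 1 (6.43 and 6.82%) in epithelium, and 15 higher (9.25%), 44 and 1 (12.9 and 9.19%), then 2 higher (2.86%) in fiber, and the interaction had 58 higher (20.6%). DESeq2 called 1 higher in fiber from E14.5 to E16.5, 0 from E18.5 to P0.5 and 0 with a shrinking interaction. Fits on the compared groups called 1 higher in fiber from E16.5 to E18.5, 0 from E18.5 to P0.5 and 0 with a shrinking interaction.

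Leaving out 1 library at a time gave 45 to 49 higher in the average, and over the stages in order 18 to 27, 29 to 42, 53 to 60 and 57 to 60, with 16 to 19 in fiber from E14.5 to P0.5 and 3 to 6 with a growing interaction. Small counts moved more. In fiber, 0 to 1 were higher from E14.5 to E16.5 (1 without P0.5 epithelium replicate 1), 1 to 3 higher from E16.5 to E18.5 (1 without E16.5 fiber replicate 2 or 3) and 0 to 1 lower (1 without E18.5 fiber replicate 1). From E18.5 to P0.5, 0 to 2 were higher in fiber (0 without E18.5 fiber replicate 3 or P0.5 fiber replicate 1 or 2, and 2 without P0.5 fiber replicate 3). In epithelium 0 to 1 were lower from E16.5 to E18.5 (1 without E18.5 epithelium replicate 2), and 0 to 1 had a shrinking interaction, Cox7a1, whose libraries are named above. Atp5s passed in the average without any 1 of 5 libraries (1.002 to 1.02): E14.5 epithelium replicate 3, E14.5 fiber replicate 3, E16.5 epithelium replicate 1, E18.5 epithelium replicate 1 and P0.5 fiber replicate 2. Without E18.5 fiber replicate 2, the average had 46 and 3 and E18.5 had 57 and 3.

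Whether replicate numbers pair the libraries across tissues was not settled by correlations of deviations from group means. Same-number correlations ran from -0.073 to 0.251, and those of other numbers from -0.228 to 0.190. Of the same-number pairs, 4 of 12 exceeded 0.1, and 7 of 12 epithelium libraries correlated best with their own number. With the replicate block, all 28 counts stayed within 1.5 times, and so they did without the filter, with Rn45s left out of TMM and relative to the median of all genes. The isoform ratios kept their calls with the block (permuted exact p at most 0.0342, adjusted), with a pseudocount of 1 and without each library. Low counts limit Cox6a2, Cox7a1, Cox4i2 and Ndufa4l2.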
